A study of Homo sapiens with 24 samples.

Results

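AP-1 is a family of transcription factors that bind DNA as dimers. The 8 genes described here were listed by name: the FOS family (FOS, FOSB, FOSL1 and FOSL2), the JUN family (JUN, JUNB and JUND) and BATF3. They are 8 of the 34834 genes to which the deposited transcripts could be summed, and all 8 were among the 17413 genes with enough reads to be tested. SK-MES1 is an established human cell line of squamous cell lung carcinoma (LUSC). After 3 h without growth factors, cells received TGFβ1 at 2 ng/ml or no TGFβ1 (untreated), and RNA-Seq was performed at 0, 8, 24 and 48 h. Each arm and time point had 3 libraries described as biological triplicates, 24 libraries in all, and both arms had passed through the growth factor depletion. The study asked how the transcriptome of these cells changed over time in response to TGFβ. A single cell line was used, and the untreated arm, sampled at the same times, is the control for every arm difference given here.

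AP-1 factors carry a basic leucine zipper (bZIP): the zipper joins the dimer partners and the basic stretch touches DNA. JUN proteins can pair with each other or with FOS proteins, while FOS proteins need a JUN partner, and BATF3 pairs with JUN proteins and lacks the long activating regions of FOS. FOS, FOSB, JUN and JUNB are known as immediate-early genes, transcribed within minutes of growth factor or stress signals, and AP-1 complexes are known to act together with SMAD proteins at genes that respond to TGFβ.

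The most abundant AP-1 mRNA changed with time and arm. FOSL1 led at 0 h, with 118 ± 10.04 TPM in untreated cells (TPM is a level per transcript length that sums to the same total in each library, given as mean ± SD, n = 3), and JUNB led in the TGFβ arm at 24 and 48 h, where it reached 99.3 ± 0.935 TPM. JUNB mRNA was higher in TGFβ-treated cells at 8, 24 and 48 h and JUN mRNA at 8 and 24 h. FOSL1 and FOSL2 mRNA were lower at 24 and 48 h, FOS at 24 h and BATF3 at 8 h. FOSB, the least abundant member, was higher at 48 h, and the arm difference of JUND passed the test at no time point.

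The depth of the libraries was 46613589 to 77964234 estimated counts, with a median of 54120879. The cells had KRT8 and KRT18, keratins of simple epithelium, at group means of 409 to 975 TPM. TP63, a factor of squamous epithelium, was at 8.74 to 36.8 TPM. The squamous markers KRT5, KRT6A, KRT14 and DSG3 were at or below 0.062 TPM, so 4 of the 7 squamous markers were nearly absent. KRT17 was at 0.433 to 70.5 TPM and SOX2 at 0.432 to 7.41 TPM in the group means. In the TGFβ arm KRT17 was higher and SOX2 lower at 8, 24 and 48 h. TP63 was higher at 8 and 24 h and lower at 48 h. CD3E of T cells was at 0 and CDH5 of endothelium at or below 0.102 TPM. CD68, also on the list of blood markers, was at 7.89 to 34.9 TPM in the group means. It fell with time in both arms, and its arm difference was called at no time point. At 48 h PTPRC of blood cells was lower in the TGFβ arm (group means of 2.01 and 1.64 TPM in untreated and TGFβ-treated cells). PECAM1 and VWF of endothelium were higher (2.73 and 3.42 TPM, and 0.2 and 0.289 TPM). Of 4 epithelial markers 3 were lower, KRT18, EPCAM and CDH1, with log2 differences of -0.19, -0.44 and -0.35. Over all tested genes 16.2% were higher and 16.5% lower at 48 h. With the arm difference at 0 h taken off, KRT18 and EPCAM were still called, and CDH1, PTPRC, PECAM1 and VWF were not. The part of these markers in the results was not tested. SMAD7, SKIL and PMEPA1, known direct targets of TGFβ, were higher in the TGFβ arm at 8, 24 and 48 h. In both arms the replicate 2 libraries of 0 h and 24 h deviated most from their group means, with root mean square deviations of 0.344 to 0.394 on the log2 scale. The other libraries of these groups were at 0.292 to 0.344. The names of the deposited tables carry 4 codes of unstated meaning. These coincide with the arm and with early (0 and 8 h) or late (24 and 48 h) sampling. Code and arm cannot be told apart at any single time point. Code and time cannot be told apart between the early and late libraries of an arm. At 0 h, when the arms already differed in code, 0 genes passed the test. That comparison covers the early codes only, and a test that is not passed does not show that codes have no effect.

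The sequences before the start sites are shown so that the letters known to bind AP-1 and related factors can be compared between the members, and no relation to the changes in mRNA was tested. Promoter sequences were taken from RefSeq (GRCh38.p14), in which 6 of the 8 members had an entry. FOSL1 and BATF3 had none. Each line gives 65 bases on the strand of the gene, 5′ to 3′, from 100 to 36 bases before the RefSeq start site, and capitals mark matches to the motifs named after them. For FOSL2 the RefSeq start lies 410 bases inside the GENCODE gene whose coordinates are given further on, and for the other 5 genes both starts agree within 2 bases.
JUN (chr1:58784083-58784147, minus strand): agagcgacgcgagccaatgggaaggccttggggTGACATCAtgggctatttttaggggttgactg
JUNB (chr19:12791386-12791450, plus strand): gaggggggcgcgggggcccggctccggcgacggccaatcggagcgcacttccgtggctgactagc
JUND (chr19:18281658-18281722, minus strand): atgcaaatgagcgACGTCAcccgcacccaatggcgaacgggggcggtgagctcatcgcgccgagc
FOS (chr14:75278728-75278792, plus strand): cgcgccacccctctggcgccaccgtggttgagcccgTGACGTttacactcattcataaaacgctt
FOSB (chr19:45467896-45467960, plus strand): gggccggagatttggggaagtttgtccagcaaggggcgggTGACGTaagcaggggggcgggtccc
FOSL2 (chr2:28392758-28392822, plus strand): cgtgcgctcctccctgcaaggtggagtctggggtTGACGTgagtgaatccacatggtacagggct

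JUN held TGACATCA, a variant of the AP-1 site known from this promoter, at 67 to 60 bases before its start, and 2.37% of the 35116 promoters searched held these letters on either strand within 250 bases upstream. FOS, FOSB and FOSL2 each held TGACGT, the first letters of the cyclic AMP response element (CRE), between 66 and 55 bases before the RefSeq start, as did 7.10% of all promoters somewhere in the 250 bases. The stretch of JUND held the same letters on the other strand, and a full CRE, TGACGTCA, which contains them, lay further upstream at 200 to 193 bases (1.65% of promoters). The printed stretch of JUNB held none of the motifs searched. Searched in the same way, the AP-1 site TGAGTCA (4.20% of promoters), the SMAD motifs GTCTAGAC (0.18%) and AGCCAGACA (0.23%) and the CArG box (1.16%) were found in none of the 6 windows. Motifs further upstream than 250 bases, or inside the genes, could not be found by this search, so none of these genes is shown to lack them. A match describes letters and is not a measured binding site.

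JUN and JUNB rose first. In these bulk libraries, fewer cells of a kind and less RNA per cell cannot be told apart. At 8 h, 2 of the 8 members were higher in the TGFβ arm (JUN and JUNB) and 1 was lower (BATF3) at an adjusted p below 0.01 in limma voom, beside 16.4% of all tested genes called in either direction (9.14% higher and 7.28% lower). The median log2 arm difference of the members was -0.05, beside -0.02 over all tested genes. At 0 h no member was called, and of the 17413 genes, of which 0% were called, 800 had an unadjusted p below 0.05. edgeR and DESeq2 also called 0 members at 0 h.

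JUN (ENSG00000177606, chromosome 1, 58776845 to 58784048, minus strand) encodes c-Jun, a strongly activating partner of FOS proteins. At 0 h the untreated libraries were at 39.2, 35.7 and 39.6 TPM and those of the TGFβ arm at 37.6, 31.1 and 43.5 TPM, so the ranges overlapped. At 8 h the untreated libraries were at 37.5, 38.1 and 38.6 TPM and the TGFβ-treated libraries at 79.9, 73.6 and 72.9 TPM. Every treated library was far above every untreated one, and the log2 difference was 1.04 ± 0.096 (SE, adjusted p = 3e-08, limma voom). At 24 h untreated cells had fallen to 26.2, 22.7 and 25.6 TPM, and TGFβ-treated cells were at 59.5, 47.02 and 52.2 TPM. Both arms were lower than at 8 h, by 0.61 and 0.53 on the log2 scale, while the arm difference stayed at 1.12 ± 0.10 (adjusted p = 1e-08, limma voom). At 48 h the untreated libraries were at 58.4, 54.7 and 51.9 TPM and the treated libraries at 62.3, 62.1 and 61.3 TPM. The treated libraries were still the higher ones without overlap, but the log2 difference of 0.19 ± 0.097 did not pass the test (adjusted p = 0.12, limma voom).

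The arm difference of JUN thus shrank between 24 and 48 h, by 0.93 ± 0.139 on the log2 scale (adjusted p = 7.4e-05, limma voom). JUN rose in the untreated arm by 1.09 ± 0.10 between 24 and 48 h (adjusted p = 2e-08), against 0.17 ± 0.097 in the TGFβ arm (adjusted p = 0.20). JUN at 48 h moved past the threshold in 3 other fits. The log2 difference was 0.19 (adjusted p = 0.0017) without the replicate 2 libraries of 0 h and 24 h, 0.20 (adjusted p = 0.00087) with the 48 h libraries alone and 0.54 (adjusted p = 6.8e-06) with library sizes set by 4 reference genes. That last scaling raised the median log2 difference of all genes to 0.336 at 48 h and 0.335 at 24 h, and JUN at 48 h lay 0.20 above this median.

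JUNB (ENSG00000171223, chromosome 19, 12791486 to 12793315, plus strand), a JUN protein known as a weaker activator that can also oppose c-Jun, showed the largest arm difference of the members at 8 and 48 h. At 0 h its libraries were at 15.5, 11.9 and 15.2 TPM in the untreated arm and 15.6, 9.57 and 16.7 TPM in the TGFβ arm. The lowest value of each arm came from its replicate 2 library, and the ranges overlapped. At 8 h untreated cells were at 23.2, 23.9 and 24.6 TPM and TGFβ-treated cells at 64.3, 68.0 and 67.5 TPM, a log2 difference of 1.53 ± 0.146 (adjusted p = 5.2e-08, limma voom), or 2.90-fold. At 24 h the values were 50.4, 42.9 and 51.0 TPM against 103, 71.4 and 91.7 TPM. The log2 difference of 0.90 ± 0.139 (adjusted p = 2.1e-05) was smaller than at 8 h, but that change of -0.63 ± 0.202 was not called (adjusted p = 0.047). At 48 h untreated cells were at 37.8, 35.1 and 34.5 TPM and TGFβ-treated cells at 99.6, 100.1 and 98.3 TPM, with a log2 difference of 1.49 ± 0.143 (adjusted p = 2.1e-08). The arms did not overlap at 8, 24 or 48 h.

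JUNB rose in untreated cells as well. Between 0 and 8 h it rose by 0.72 ± 0.167 in untreated cells (adjusted p = 0.0019, limma voom) and by 2.28 ± 0.159 in TGFβ-treated cells (adjusted p = 2.4e-10), where 26% and 33.9% of all tested genes were called. HOOK2, which overlaps JUNB on the opposite strand, had no called arm difference at any time point.

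JUND (ENSG00000130522, chromosome 19, 18279694 to 18281622, minus strand), the JUN protein known for steady expression in resting cells, had no called arm difference and was at higher levels at later times in both arms. Its means in untreated cells were 32.8 ± 3.33, 49.3 ± 2.38, 69.5 ± 10.2 and 93.6 ± 7.93 TPM at 0, 8, 24 and 48 h (n = 3 each). In the TGFβ arm they were 33.1 ± 10.1, 46.7 ± 0.549, 56.6 ± 17.3 and 86.5 ± 2.64 TPM. The large SDs at 0 and 24 h in the TGFβ arm came from the replicate 2 libraries, at 21.4 TPM beside 39.1 and 38.8 TPM and at 37.5 TPM beside 71.3 and 60.9 TPM. Log2 arm differences were -0.02, -0.06, -0.33 and -0.18 from 0 to 48 h, and the smallest adjusted p was 0.14 in limma voom. The 95% intervals, for example -0.69 to 0.03 at 24 h, leave room for a difference. Of the steps in time, the rise of 0.63 ± 0.182 between 0 and 8 h in untreated cells passed the test (adjusted p = 0.0095), and the difference of 0.59 ± 0.173 between 24 and 48 h in the TGFβ arm did not (adjusted p = 0.011). Without the replicate 2 libraries of 0 h and 24 h, JUND was among the members called in both arms from 0 to 8 h and from 24 to 48 h. With the 48 h libraries alone the arm difference of JUND at 48 h was called (-0.17, adjusted p = 0.0024).

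**Figure D1:**
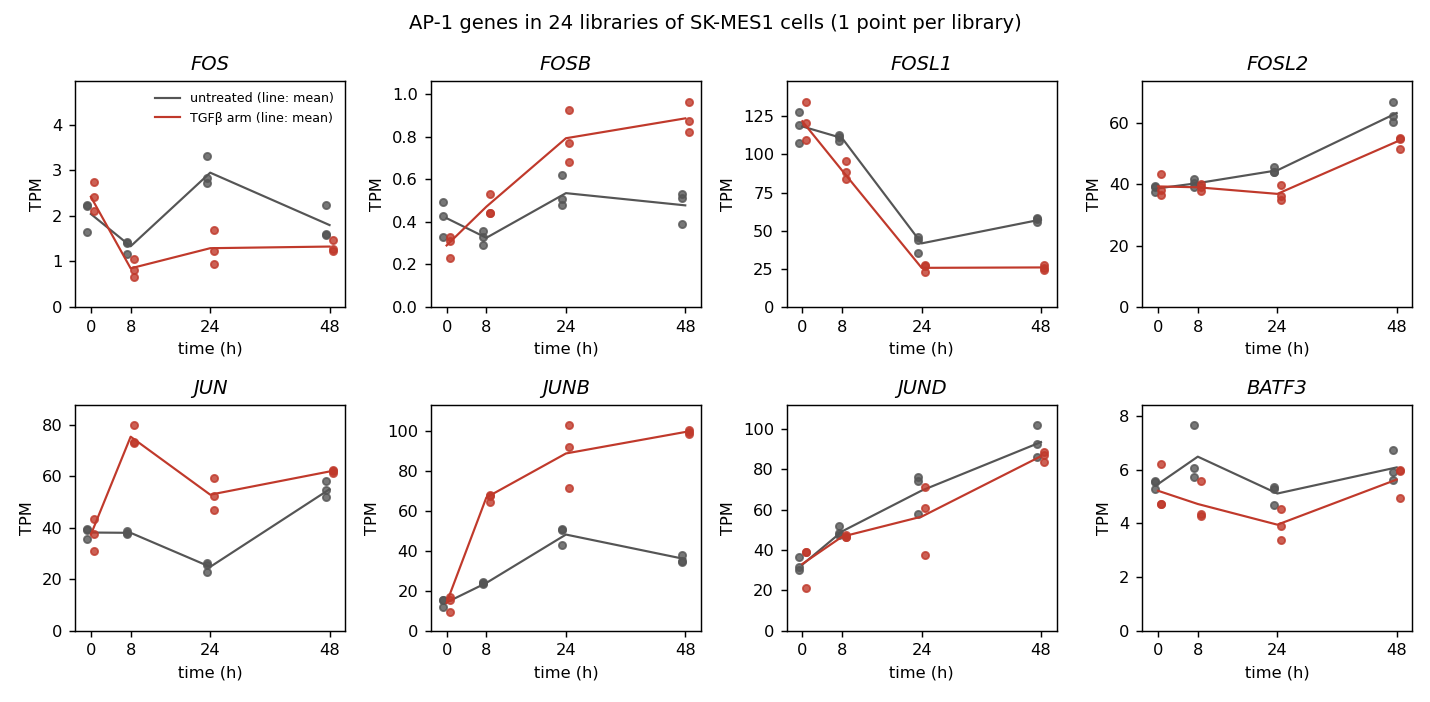
Level of each AP-1 gene in TPM (y axis, linear, starting at 0) against time in hours (x axis), with 1 point per library and a line through the means of the 3 libraries of each arm, untreated in grey and the TGFβ arm in red. JUNB and JUN in the TGFβ arm lie above all untreated libraries of the same time from 8 h on, FOSL1 falls in both arms and stays near 26.0 TPM in the TGFβ arm at 48 h, and JUND is higher at later times in both arms.

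FOS, FOSL1 and FOSL2 moved the other way. At 24 h, 5 of the 8 members were called, with FOS, FOSL1 and FOSL2 lower and JUN and JUNB higher in the TGFβ arm, beside 29.4% of all tested genes (15.5% higher and 13.9% lower). The median over the members was -0.28 on the log2 scale, beside -0.02 over all tested genes. At 48 h, 4 were called, with FOSL1 and FOSL2 lower and FOSB and JUNB higher, beside 32.7% of all tested genes (16.2% higher and 16.5% lower). The medians were -0.13 and -0.01.

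FOSL1 (ENSG00000175592, chromosome 11, 65892049 to 65900573, minus strand) encodes FRA1, a FOS protein without the strong activating region of FOS and often abundant in carcinoma cells. At 0 h the untreated libraries were at 128, 108 and 119 TPM and the TGFβ arm at 121, 109.7 and 135 TPM. FOSL1 at 8 h was at 111, 112 and 109 TPM in untreated and at 95.8, 88.7 and 83.9 TPM in treated cells, so the treated libraries were all lower, but the log2 difference of -0.27 ± 0.096 was not called (adjusted p = 0.049, limma voom). It was called at -0.27 (adjusted p = 6e-05) without the replicate 2 libraries of 0 h and 24 h, at -0.26 (adjusted p = 0.00071) with the 8 h libraries alone and at -0.35 (adjusted p = 0.0067) when library totals took the place of the scaling factors. At 24 h FOSL1 was at 44.3, 35.3 and 45.6 TPM in untreated cells and at 27.4, 22.8 and 26.9 TPM in TGFβ-treated cells. It had fallen since 8 h by 1.40 ± 0.101 on the log2 scale in untreated cells and by 1.80 ± 0.107 in TGFβ-treated cells. The fall in TGFβ-treated cells was the steepest of any member between neighbouring time points. The step from 8 to 24 h also crosses from the early to the late codes, so code and time cannot be told apart in it. The arm difference was -0.66 ± 0.111 (adjusted p = 5.8e-05), and with the 24 h libraries alone it was -0.65 and just missed the threshold (adjusted p = 0.011).

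Between 24 and 48 h FOSL1 recovered in part in untreated cells, to 58.3, 57.7 and 56.0 TPM, a rise of 0.40 ± 0.105 on the log2 scale (adjusted p = 0.0044, limma voom). TGFβ-treated cells stayed at 27.8, 25.7 and 24.5 TPM, with a change of -0.04 ± 0.117 (adjusted p = 0.84). The arm difference at 48 h was -1.10 ± 0.111 (adjusted p = 4.8e-08), or 0.466-fold, and the arms did not overlap. The test of a different arm difference at 48 than at 24 h gave -0.44 ± 0.157 (adjusted p = 0.066) and was not passed. Without the replicate 2 libraries of 0 h and 24 h it was among the calls. The main transcript of FOSL1, ENST00000312562, held 64.9% to 74.3% of its TPM in the group means. ENST00000448083 held 21.8% at 0 h and 11.1% at 24 h in the TGFβ arm, and 20.4% and 13.0% in untreated cells.

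FOSL2 (ENSG00000075426, chromosome 2, 28392448 to 28417317, plus strand), which encodes FRA2, had the smallest SE of the members. At 0 h its libraries were at 39.4, 37.6 and 39.0 TPM untreated and 36.4, 38.2 and 43.3 TPM in the TGFβ arm, and at 8 h at 40.3, 41.6 and 39.3 TPM against 40.1, 39.2 and 37.7 TPM. The ranges overlapped at both times. At 24 h they were at 43.9, 44.04 and 45.7 TPM against 39.6, 34.8 and 36.1 TPM, a log2 difference of -0.28 ± 0.044 (adjusted p = 3e-05, limma voom). At 48 h they were at 66.9, 62.3 and 60.3 TPM against 54.8, 55.2 and 51.5 TPM, a log2 difference of -0.31 ± 0.043 (adjusted p = 4.2e-06). These differences turned round with library sizes set by the 4 reference genes, to 0.075 at 24 h (adjusted p = 0.24) and 0.04 at 48 h (adjusted p = 0.52). Relative to the median of all genes under that scaling they were -0.26 and -0.30. With the 24 h libraries alone the call at 24 h was lost (-0.26, adjusted p = 0.011). FOSL2 rose between 24 and 48 h in both arms, by 0.51 ± 0.043 in untreated cells (adjusted p = 5.5e-09) and 0.47 ± 0.044 in TGFβ-treated cells (adjusted p = 2.9e-08), beside 28.5% and 25.8% of all genes called in these steps. FOSL2 overlaps FOSL2-AS1, a long noncoding RNA on the opposite strand that was not among the tested genes.

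FOS (ENSG00000170345, chromosome 14, 75278826 to 75282230, plus strand), the classical immediate-early partner of JUN, was rare in these libraries, at 0.849 to 2.95 TPM in the group means and 64.7 to 202 mean estimated counts. At 0 h the libraries were at 2.24, 1.65 and 2.23 TPM untreated and 2.41, 2.11 and 2.73 TPM in the TGFβ arm. At 8 h they were at 1.40, 1.17 and 1.43 TPM against 0.818, 0.669 and 1.06 TPM. FOS had fallen in both arms, by 0.74 ± 0.145 on the log2 scale in untreated cells (adjusted p = 4e-04, limma voom) and by 1.40 ± 0.154 in TGFβ-treated cells (adjusted p = 2.3e-07), and the arm difference of -0.41 ± 0.165 was not called (adjusted p = 0.082). At 24 h untreated cells were back at 2.82, 2.72 and 3.31 TPM, their highest level, while TGFβ-treated cells were at 1.69, 0.945 and 1.24 TPM. The difference was -1.18 ± 0.137 (adjusted p = 4.5e-07), or 0.442-fold, and no library overlapped. At 48 h they were at 1.60, 2.23 and 1.57 TPM against 1.48, 1.24 and 1.27 TPM, with a log2 difference of -0.22 ± 0.150 that was not called (adjusted p = 0.26). The arm difference changed by 0.96 ± 0.203 between 24 and 48 h (adjusted p = 0.0023). In untreated cells FOS fell by 0.86 ± 0.126 over this step, and in TGFβ-treated cells its change was 0.10 ± 0.159 (adjusted p = 0.67).

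FOSB (ENSG00000125740, chromosome 19, 45467995 to 45475179, plus strand) stayed below 1 TPM in every library, with 31.2 to 83.5 mean estimated counts per group. At 8 h it was at 0.327, 0.291 and 0.357 TPM in untreated cells and 0.441, 0.529 and 0.443 TPM in TGFβ-treated cells. At 24 h the values were 0.505, 0.479 and 0.619 TPM against 0.924, 0.682 and 0.770 TPM, and at 48 h 0.529, 0.514 and 0.389 TPM against 0.819, 0.964 and 0.873 TPM. The treated libraries were higher without overlap at all 3 time points, and the log2 difference was 0.66 ± 0.188 at 8 h (adjusted p = 0.012, limma voom), 0.49 ± 0.153 at 24 h (adjusted p = 0.014) and 1.02 ± 0.168 at 48 h (adjusted p = 3.8e-05). The first 2 values lay close to the threshold, and several other settings passed it, edgeR at 8 h (0.69, adjusted p = 0.0097) and length-scaled counts at 24 h (0.61, adjusted p = 0.0082) among them. Leaving out untreated 48 h replicate 1, or replicate 1 or 3 of the TGFβ arm at 0 h, brought both past the threshold (adjusted p of 0.0059 to 0.0076), and leaving out untreated 48 h replicate 3 did so at 8 h (adjusted p = 0.0099). At 0 h the libraries of the TGFβ arm were lower, at 0.327, 0.309 and 0.231 TPM against 0.491, 0.331 and 0.429 TPM (log2 difference -0.27 ± 0.212, adjusted p = 1). FOSB overlaps ERCC1, a DNA repair gene on the opposite strand, and ERCC1 was higher by 0.29 at 8 h (adjusted p = 0.00096) and 0.26 at 48 h (adjusted p = 0.0015). Whether the libraries kept strand is not given in the sources used here, so reads shared by both genes cannot be told apart. How the reads split between the FOSB transcripts also varied, and ENST00000586113, annotated as a retained intron, held 47.3% ± 16.4 of its TPM in untreated cells at 8 h.

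BATF3 (ENSG00000123685, chromosome 1, 212686417 to 212699840, minus strand), a small bZIP factor known from dendritic cells, was present at 3.95 to 6.49 TPM in the group means and 111 to 201 mean estimated counts. At 8 h untreated cells were at 5.73, 6.07 and 7.65 TPM and TGFβ-treated cells at 5.57, 4.26 and 4.34 TPM. The ranges nearly met, and the log2 difference was -0.51 ± 0.118 (adjusted p = 0.0028, limma voom). The call rested on single libraries: it was lost without untreated replicate 3 (-0.43, adjusted p = 0.023), without TGFβ-treated replicate 2 (-0.43, adjusted p = 0.022) or without TGFβ-treated replicate 3 (-0.50, adjusted p = 0.016). It was also lost on the log2(TPM + 1) scale (-0.39, adjusted p = 0.024) and with the difference at 0 h taken off (-0.46, adjusted p = 0.1). At 24 h the values were 5.35, 4.70 and 5.29 TPM against 4.55, 3.39 and 3.92 TPM and the difference of -0.29 ± 0.130 was not called (adjusted p = 0.087). At 48 h the ranges overlapped and the difference was -0.07 ± 0.124 (adjusted p = 0.68). The coding transcript ENST00000243440 held 53.0% to 77.2% of BATF3 TPM, and the remainder was mostly ENST00000471382, for which no coding sequence is annotated.

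**Figure D2:**
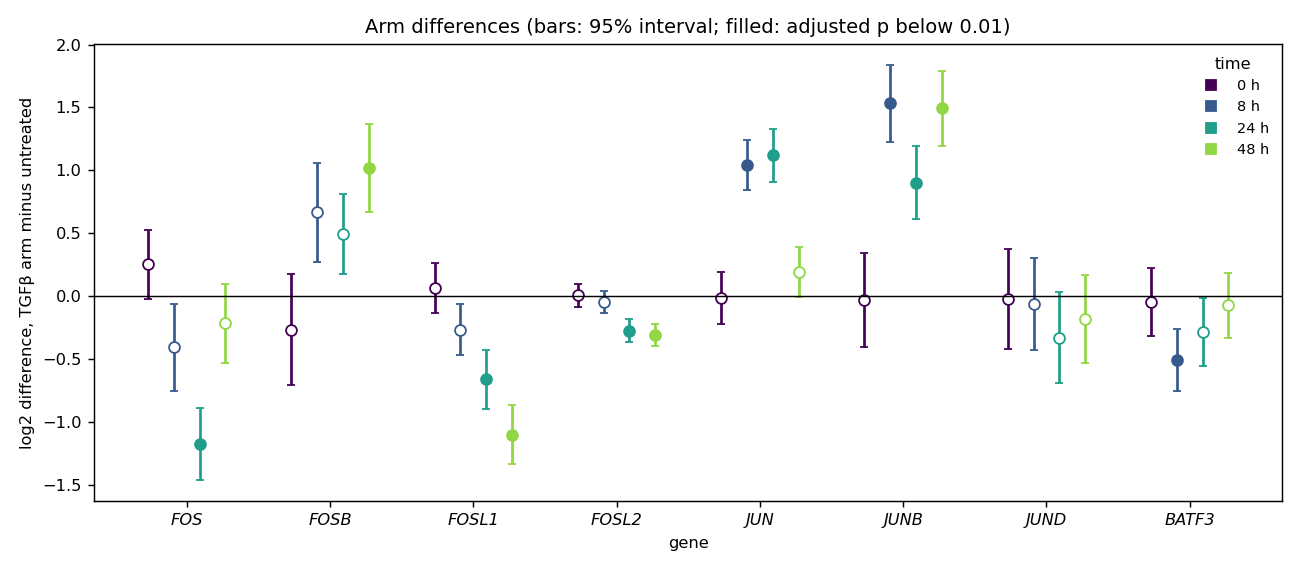
Log2 difference between the TGFβ arm and untreated cells (y axis) for each AP-1 gene (x axis) at 0, 8, 24 and 48 h, with bars for the 95% interval in limma voom and filled points for an adjusted p below 0.01. The values at 0 h lie between -0.27 and 0.25 with all points open, JUNB lies above 0.90 from 8 h on, and FOSL1 steps down from -0.27 at 8 h to -1.10 at 48 h.

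Over 8, 24 and 48 h together, the F-test of limma voom called 7 of the 8 members, all but JUND, beside 42.6% of all tested genes. By the plainer measure of no overlap in TPM between the 3 libraries of each arm, 1 member was separate at 0 h (FOSB), 7 at 8 h, 7 at 24 h and 6 at 48 h. Over all tested genes the shares without overlap were 6.98%, 47.5%, 40.4% and 55.2%. The arm difference itself changed between 0 and 8 h for JUN (1.06 ± 0.138, adjusted p = 1e-05) and JUNB (1.56 ± 0.231, adjusted p = 4.6e-05), 2 of 8 members beside 7.91% of all genes. Between 8 and 24 h 0 members were called in limma voom, beside 6.7% of all genes. At an unadjusted p below 0.05 the change passed for FOS (-0.77), FOSL1 (-0.40), FOSL2 (-0.23) and JUNB (-0.63), 4 of 8 members beside 23.6% of all tested genes, while edgeR called 0 members and DESeq2 called 1 (FOSL2). Between 24 and 48 h FOS and JUN were called, beside 9.14% of all genes. Against the difference at 0 h, 5 members had changed by 24 h (FOS, FOSL1 and FOSL2 down, JUN and JUNB up, beside 16.6% of all genes) and 4 by 48 h (FOSL1 and FOSL2 down, FOSB and JUNB up, beside 20.7%). The early and late libraries of an arm carry different codes. A difference between the codes therefore does not drop out of these changes, nor out of the change from 8 to 24 h.

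Members also changed in time within each arm. Between 0 and 8 h, 3 members changed in untreated cells (FOS fell, JUNB and JUND rose), beside 26% of all genes, and 4 in the TGFβ arm (FOS and FOSL1 fell, JUN and JUNB rose), beside 33.9%. Between 8 and 24 h untreated cells had lower FOSL1 and JUN and higher FOS, FOSB and JUNB, beside 33.1% of all genes called. Over the same step TGFβ-treated cells had lower FOSL1 and JUN and higher FOSB, beside 28.5%. In both arms the step from 8 to 24 h crosses from the early to the late codes, so code and time cannot be told apart in it. Between 24 and 48 h 4 members changed in untreated cells (FOS fell, FOSL1, FOSL2 and JUN rose), beside 28.5%, and FOSL2 rose in the TGFβ arm, beside 25.8%.

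The order of the levels changed with these movements. At 0 h FOSL1 was highest in both arms. FOSL2, JUN and JUND followed, with ranges that overlapped from each to the next, and JUNB, BATF3, FOS and FOSB came after them in that order without overlap. At 8 h the order in untreated cells was FOSL1, JUND, FOSL2, JUN, JUNB, BATF3, FOS and FOSB, and in TGFβ-treated cells FOSL1, JUN, JUNB, JUND, FOSL2, BATF3, FOS and FOSB, in both cases with no neighbours overlapping. At 48 h JUND was highest in untreated cells, followed by FOSL2, FOSL1 and JUN, of which the last 2 overlapped, and then by JUNB. In TGFβ-treated cells at 48 h the order was JUNB, JUND, JUN, FOSL2 and FOSL1, without overlap. BATF3, FOS and FOSB were the lowest members in all 8 groups.

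In both arms the summed TPM of the FOS family was lower, and that of the JUN family higher, at 48 h than at 0 h. The FOS family held 159 ± 11.4 TPM in untreated cells at 0 h and 123 ± 4.53 TPM at 48 h, and 164 ± 15.6 and 82.0 ± 3.50 TPM in the TGFβ arm. FOSL1 made up 74.2% ± 1.02 of it in untreated cells at 0 h, and at 48 h FOSL1 made up 46.7% ± 0.813 and FOSL2 51.4% ± 0.966. In TGFβ-treated cells at 48 h FOSL1 made up 31.6% ± 0.938 and FOSL2 65.7% ± 0.953. The mean share of FOSL2 was above that of FOSL1 in both arms at 24 and 48 h. The JUN family held 85.1 ± 5.89 TPM at 0 h and 184 ± 11.96 TPM at 48 h in untreated cells. In the TGFβ arm these sums were 84.5 ± 19.6 and 248 ± 2.11 TPM. JUNB made up 16.4% ± 0.850 of this sum at 0 h and 40.1% ± 0.485 at 48 h in the TGFβ arm, beside 19.4% ± 0.459 in untreated cells at 48 h, where JUND held 50.7% ± 1.54. These sums describe mRNA levels and were not tested. The libraries of 0 and 48 h of an arm carry different codes, so code and time cannot be told apart in this comparison.

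**Figure D3:**
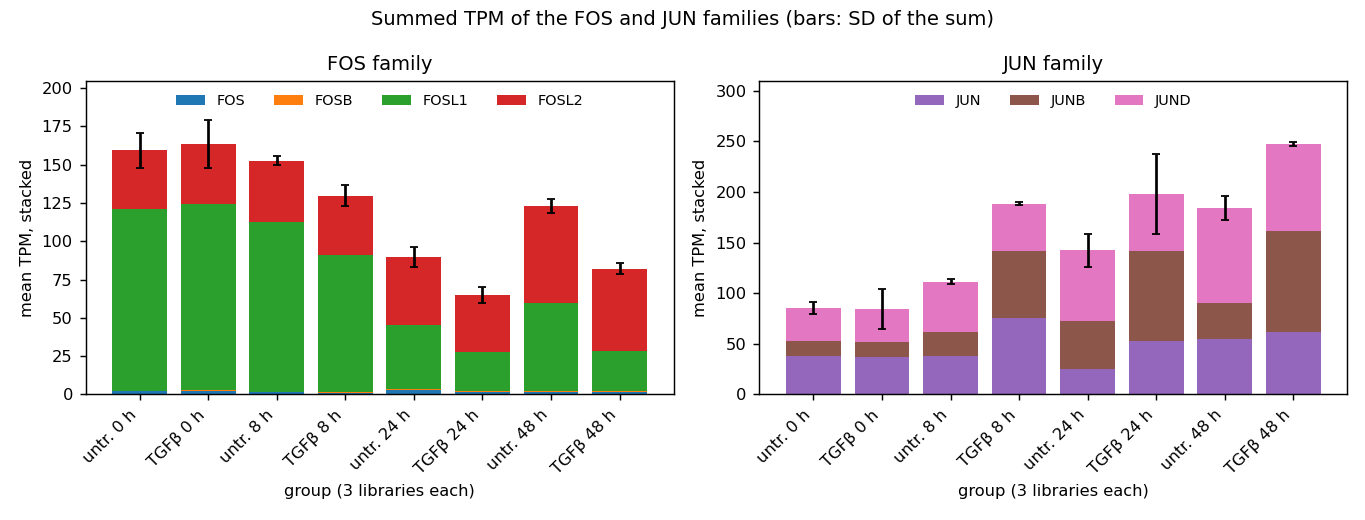
Mean TPM of the FOS family members (left) and the JUN family members (right), stacked for each arm and time point (x axis, 3 libraries each), with bars for the SD of the summed TPM. The FOS family sum is lowest in TGFβ-treated cells at 24 h (64.6 TPM) and the JUN family sum is highest in TGFβ-treated cells at 48 h (248 TPM).

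Across the 24 libraries, which share 8 groups and so are not independent points, the level of FOSL1 ran opposite to those of FOSB and JUNB (Pearson r of -0.87 and -0.80 on log2 CPM, counts scaled to library size), and FOSB and JUNB ran together (0.84). FOS ran opposite to JUN (-0.75). The genes most like JUNB over the libraries were MLXIP (0.992), ATOSB (0.977) and CRIP2 (0.975), and those most like JUN were SH2B3 (0.931), PALD1 (0.927) and BCAR3 (0.917). Among the genes most like FOSL1 were BCS1L (0.975) and AIFM2 (0.972). FOSL2 was most like IFI6 (0.964), NFKBIA (0.963) and MX1 (0.960), and JUND like PPP1R26 (0.973), TNFRSF18 (0.971) and OPLAH (0.971). For FOS the nearest were TENT5C (0.919) and the immediate-early genes EGR1 (0.904) and ZFP36 (0.887). FOSB was nearest to SERPINA3 (0.927), ATG13 (0.906) and ZNF608 (0.902), and BATF3 to PRRT3, ICOSLG and CARD19, with r no higher than 0.744. These values are descriptions of likeness over the same libraries.

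Other bZIP factors can pair with JUN or FOS proteins or compete for similar sites. Of 13 listed, 12 were tested, and 5 were higher and 0 lower in the TGFβ arm at 8 h, 6 higher and 1 lower at 24 h, and 4 higher and 3 lower at 48 h. Over all tested genes 9.14% were higher and 7.28% lower at 8 h, 15.5% and 13.9% at 24 h, and 16.2% and 16.5% at 48 h. Their median log2 differences were 0.12, 0.18 and 0.04, beside medians from -0.02 to -0.01 over all tested genes. MAF, a large MAF factor that can pair with JUN and FOS, was higher by 0.92 ± 0.07 at 8 h and 2.52 ± 0.07 at 48 h (adjusted p = 9.9e-18, limma voom). JDP2, a repressor that pairs with JUN, was higher by 1.40 ± 0.09 at 24 h (adjusted p = 2.7e-11) and 1.26 at 48 h. ATF4, the factor of the integrated stress response, was higher by 0.20 at 8 h, 0.89 at 24 h and 0.40 at 48 h. BATF2, like BATF3 a small bZIP factor, was lower by 1.78 ± 0.13 on the log2 scale at 48 h (adjusted p = 4.2e-10), at 3.51 TPM in untreated and 1.01 TPM in TGFβ-treated cells.

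Immediate-early genes outside the AP-1 family went in both directions. Of 14 listed, 13 were tested, and 5 were higher and 4 lower at 8 h, 4 higher and 7 lower at 24 h, and 3 higher and 6 lower at 48 h, with medians of 0.16, -0.27 and -0.46. Over all tested genes 16.4%, 29.4% and 32.7% were called, with medians of -0.02, -0.02 and -0.01. EGR2, a zinc finger factor, was higher by 2.93 ± 0.145 at 8 h (adjusted p = 1.5e-12, limma voom) and by 2.35 at 48 h. Its relative EGR1 was lower by 1.40 ± 0.08 on the log2 scale at 24 h (adjusted p = 3.2e-12), the time point at which FOS differed most. IER5 was lower at all 3 time points, by 1.96 ± 0.07 on the log2 scale at 48 h (adjusted p = 5.4e-16), and the nuclear receptor NR4A2 was lower by 1.02 at 48 h.

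Of 13 listed genes known to be driven through AP-1 sites, 10 were tested, with MMP3, MMP9 and IVL below the count filter. At 8 h 6 were higher and 0 lower, at 24 h 5 were higher and 1 lower, and at 48 h 5 were higher and 3 lower, with medians of 0.83, 0.75 and 0.15. Over all tested genes 9.14% were higher and 7.28% lower at 8 h, 15.5% and 13.9% at 24 h, and 16.2% and 16.5% at 48 h. PLAU, the urokinase protease, was at group means of 97.5 and 366 TPM at 8 h and 44.3 and 360.4 TPM at 24 h, with log2 differences of 1.98 ± 0.05 and 3.06 ± 0.05 (adjusted p = 2.2e-20 at 24 h, limma voom). CD44, a receptor for hyaluronan, was higher by 1.56 ± 0.05 at 24 h, and CCND1, cyclin D1, by 1.19 ± 0.04 at 24 h and 0.31 at 48 h. MMP1, interstitial collagenase, was lower by 4.66 ± 0.25 on the log2 scale at 48 h (adjusted p = 2.3e-12), where untreated cells had reached 8.97 TPM and TGFβ-treated cells were at 0.351 TPM.

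Kinases upstream of AP-1 had list medians near 0. Of 14 MAP kinases and kinases of MAP kinases, all tested, 2 were higher and 1 lower at 8 h, 4 higher and 2 lower at 24 h, and 1 higher and 1 lower at 48 h, with medians between -0.04 and 0.04, beside 16.4%, 29.4% and 32.7% of all tested genes called in either direction. MAP3K1 was lower by 0.62 ± 0.06 on the log2 scale at 48 h (adjusted p = 6.9e-08, limma voom), MAPK8, which encodes JNK1, was higher by 0.30 at 24 and 48 h, and MAP2K1 by 0.15 at 8 h and 0.17 at 24 h. MAP2K6 was lower by 0.90 ± 0.15 at 8 h (adjusted p = 9.8e-05, limma voom), and its log2 difference at 0 h was -0.27, not called. With the arm difference at 0 h taken off, no listed kinase was called at 8 or 24 h, and MAP3K1 alone was called at 48 h. Over all tested genes 7.91%, 16.6% and 20.7% were called in this way. Of 4 factors known for the turnover of JUN proteins, FBXW7, COP1, DET1 and ITCH, none was called at a single time point. DET1 alone was called in the limma voom F-test over 8, 24 and 48 h (adjusted p = 0.0066), beside 42.6% of all tested genes. Changes in phosphorylation and protein level, by which these kinases and turnover factors act, were not measured in these libraries.

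**Figure D4:**
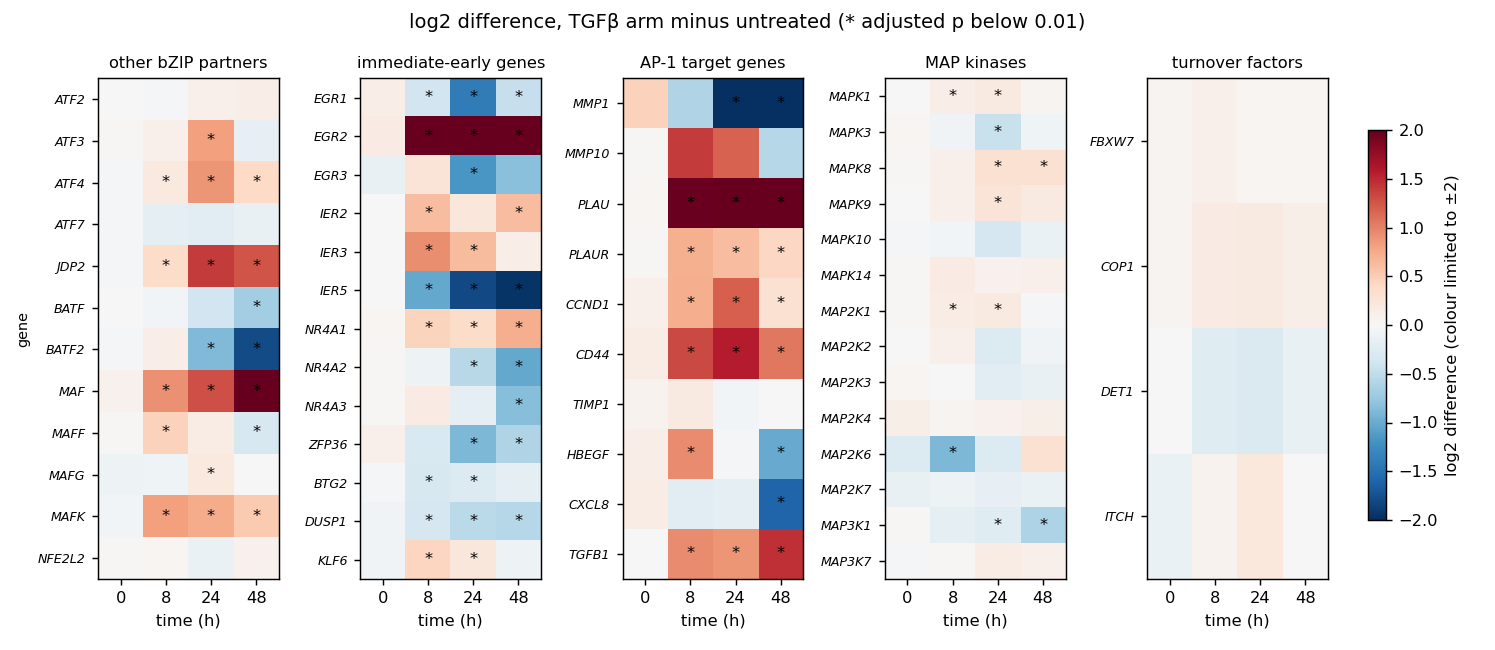
Log2 difference between the TGFβ arm and untreated cells as colour (red higher, blue lower, limited to a size of 2) for the tested genes of 5 lists (y axes) at 0, 8, 24 and 48 h (x axes), with a star for an adjusted p below 0.01 in limma voom. No star stands at 0 h, and PLAU, EGR2 and MAF reach the darkest red while MMP1 and IER5 reach dark blue.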

How the data were processed

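The authors quantified the reads with kallisto 0.43.0 against Ensembl release 79 transcripts of GRCh38, and deposited, per library, estimated counts and TPM for 173259 transcripts. The estimated counts deposited are expected reads per transcript, and TPM deposited by the authors is a level per effective length. Transcripts were summed to genes with GENCODE release 44 (155518 matched, 17741 left out). Sums of counts were rounded. A gene entered the fit if 3 or more libraries had 10 or more estimated counts for it (17413 genes). The fit used limma 3.58.1 voom with TMM factors (edgeR 4.0.16), 1 mean per group over all 24 libraries, and genes were called at a Benjamini-Hochberg adjusted p below 0.01 over all tested genes. Alternatives used edgeR's quasi-likelihood test, DESeq2 1.42.0, log2(TPM + 1), length-scaled counts, other scalings, filters and sample sets. The fit was tested on simulated data. Members, gene lists and tests were chosen with earlier results of these data known. Genes of the other lists were named where called, taking the 4 with the lowest F-test p. Correlations used log2 CPM. P-values measure the spread between these libraries, and intervals cover no other source. Some gene names are not reported here.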

Additional observations from a re-analysis of the deposited data

Results flagged for a closer look

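Arm differences of 3 members differed between neighbouring time points by the test of the change itself in limma voom. Between 0 and 8 h the log2 arm difference changed by 1.06 for JUN (adjusted p = 1e-05) and by 1.56 for JUNB (adjusted p = 4.6e-05), beside 7.91% of all tested genes called. Between 24 and 48 h it changed by 0.96 for FOS (adjusted p = 0.0023) and by -0.93 for JUN (adjusted p = 7.4e-05), beside 9.14% of all tested genes. The TGFβ libraries lay on the same side of the untreated ones at 24 and 48 h for both genes, 3 of 3 lower for FOS and 3 of 3 higher for JUN. The libraries of 24 and 48 h share a code within each arm, and so do those of 0 and 8 h.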

How the results depend on the processing

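Each arm difference was recomputed in 37 or 38 settings, of which 24 left out 1 library. Most of those libraries belonged to groups outside the difference, which then hardly moves, so the share kept is no measure of robustness. Of 1208 recomputed arm differences of the members, 1176 kept their side of the threshold, 21 newly passed it, 9 no longer did and 2 called values turned round, FOSL2 with library sizes set by the 4 reference genes (0.075 at 24 h, 0.04 at 48 h). Another 35 values that were not called changed sign, 26 at 0 h and 9 later. Of the 9, 7 came with the reference genes: FOS at 48 h (0.13), FOSL2 at 8 h (0.04), JUND at 8, 24 and 48 h (0.03, 0.02 and 0.17) and BATF3 at 24 and 48 h (0.06 and 0.28). Of the counts of members called that were recomputed, these changed by over 1.5 times. At an adjusted p below 0.05 it was 5 at 8 h, and 4, 3, 7 and 2 for the change of arm difference from 0 to 8 h and 8 to 24 h and the step from 24 to 48 h in untreated and TGFβ-treated cells. For the step from 8 to 24 h in the TGFβ arm, which was recomputed at this threshold only, it was 5 in place of 3. The share of all tested genes called at this threshold is not given, so these member counts cannot be judged against it. The member count was 3 at 24 h with the libraries of the tested times alone. For the change from 8 to 24 h it was 1 in DESeq2 and with the replicate block and 2 without the replicate 2 libraries of 0 h and 24 h, a setting chosen after seeing the data. For the change from 24 to 48 h it was 1 with log2(TPM + 1), log2(TPM + 0.1) and length-scaled counts, and 4 without those replicate 2 libraries. For the step from 0 to 8 h in untreated cells it was 1 with the same 3 scales. For the step from 24 to 48 h in the TGFβ arm, where the main count was 1, it was 8 with the reference genes, under which 56.1% of all genes were called (25.8% otherwise) and the median of all genes moved to 0.395, and 2 in DESeq2, with both TPM scales, library totals, upper-quartile factors, at least 50 counts, the replicate block or without those replicate 2 libraries. The causes were not tested.

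Leaving out 1 library gave 0 members called at 0 h, 2 to 4 at 8 h, 5 to 6 at 24 h, 4 at 48 h and 6 to 7 in the F-test. The change of arm difference was called for 2 from 0 to 8 h, 0 to 1 from 8 to 24 h and 1 to 3 from 24 to 48 h (JUN alone without TGFβ 48 h replicate 1). Steps in time were called for 1 to 3 (0 to 8 h, untreated, with FOS alone without untreated 0 h replicate 2), 4 to 6 (0 to 8 h, TGFβ), 3 to 5 (24 to 48 h, untreated) and 1 to 2 (24 to 48 h, TGFβ). Same-numbered replicates of the arms did not deviate together throughout (12 correlations of -0.062 to 0.255), so the numbers were not taken to pair samples. At 0 and 24 h the correlations were all positive, with means of 0.156 and 0.153 and the highest values for replicate 2 (0.242 and 0.255). The means at 8 and 48 h were -0.031 and 0.028. The replicate block gave 4, 5 and 4 called at 8, 24 and 48 h. FOSB at 8 h was the only member arm difference it moved past the threshold (0.67, adjusted p = 0.0099). The F-test could not be fitted on single time points. Depth limits FOS, FOSB and BATF3, with group means at or below 202 estimated counts.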
